A study of Mus musculus with 6 samples.

Results

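The Ets family is a group of transcription factors that share a DNA-binding domain, the ETS domain, and bind sites built around the letters GGAA. The 10 genes described here are Ets1, Ets2, Elk3, Erg, Fli1, Etv1, Etv4, Etv5, Etv6 and Spi1. They were taken from the 20145 named genes of the array through the RefSeq accession of each probe, which gave 16 of 55681 probes, and they were listed with the null against wild-type values of these arrays already known. Those values are therefore given as a description, and no test is drawn from them. The RNA came from mammary epithelial cells dissociated from the glands of 8-week-old female mice of the mixed strain 129sv/C57Bl6. One group was wild type and the other was null for Plk2 (Plk2 -/-), a polo-like serine/threonine kinase, with 3 samples in each and 1 Agilent array per sample. The labels do not say that the samples of a group came from separate animals. Every error below therefore rests on the spread between these samples, which may be technical. Each SE of a difference comes from the limma fit, which draws the variance of an entry towards that of all entries. The 2 genotypes lay in different rows of 1 slide, so that a difference between genotypes and a difference between rows cannot be told apart.

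Ets proteins are grouped by their relatives and by the cells that use them. Erg and Fli1 are known as regulators of endothelial and blood-forming cells, Spi1 encodes PU.1, a regulator of myeloid and B cells, and Ets1 is prominent in lymphocytes, endothelium and stroma. Etv1, Etv4 and Etv5 form the Pea3 group, which is induced by FGF and ERK signalling and takes part in the branching of epithelial organs, and Elk3 and Etv6 can act as repressors. Several members lie beside a relative in the RefSeq annotation: Ets1 is the next coding gene after Fli1 on chromosome 9, and Ets2 the next after Erg on chromosome 16.

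Promoter sequences of 6 of the 10 members were in the RefSeq table used here (GRCm38.p6), in 10 windows of 250 bases that end at an annotated start. Shown are both windows of Etv5, which differ in the number of Ets core letters, the Ets2 window, and the Erg window nearest to Ets2. Each is written 5′ to 3′ on the strand of its gene, and capitals mark GGAA or its reverse complement TTCC.

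Etv5, upstream start, chr16:22439571-22439820, minus strand: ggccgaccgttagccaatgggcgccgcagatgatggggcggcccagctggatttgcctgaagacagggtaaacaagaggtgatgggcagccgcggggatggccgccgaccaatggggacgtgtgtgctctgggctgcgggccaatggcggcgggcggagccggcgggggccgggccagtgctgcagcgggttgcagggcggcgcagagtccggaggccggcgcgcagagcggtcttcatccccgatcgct
Etv5, downstream start, chr16:22438369-22438618, minus strand: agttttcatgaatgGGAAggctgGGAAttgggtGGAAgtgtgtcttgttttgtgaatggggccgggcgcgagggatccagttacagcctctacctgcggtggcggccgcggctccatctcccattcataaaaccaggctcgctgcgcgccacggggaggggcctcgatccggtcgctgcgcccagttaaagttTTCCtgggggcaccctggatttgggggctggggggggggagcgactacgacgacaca
Erg, start nearest to Ets2, chr16:95586594-95586843, minus strand: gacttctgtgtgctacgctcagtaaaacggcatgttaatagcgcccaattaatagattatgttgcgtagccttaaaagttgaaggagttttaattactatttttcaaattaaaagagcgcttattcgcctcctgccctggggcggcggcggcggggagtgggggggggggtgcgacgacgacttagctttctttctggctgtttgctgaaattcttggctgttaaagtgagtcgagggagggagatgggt
Ets2, chr16:95702157-95702406, plus strand: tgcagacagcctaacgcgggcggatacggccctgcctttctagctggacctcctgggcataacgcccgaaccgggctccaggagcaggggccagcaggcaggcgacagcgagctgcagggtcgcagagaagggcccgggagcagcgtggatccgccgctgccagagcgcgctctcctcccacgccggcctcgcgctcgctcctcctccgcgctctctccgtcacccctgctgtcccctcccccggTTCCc

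The core was searched on both strands. The downstream Etv5 window held 4 cores and the upstream one 0, the Ets2 window held 1, and the Erg window shown held 0, while the windows of the other Erg starts held 4 and 2. Among all 32851 windows of this length 93.4% held at least 1 core, with a median of 3, and 8 of the 10 windows of members did; both windows without one are among those shown. The longer letters CCGGAA, which contain the core, were in none of the 10 windows and in 12% of all windows. A match is a description of the letters and not a binding site.

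Levels are log2 processed signals relative to the 75th percentile of each array, so that 0 is that percentile and a negative level is dimmer. Because probes differ in brightness, levels are compared between arrays and not between genes. Of the 16 probes, 15 were well above background (a call of the scanner software) on all 6 arrays. The exception was the dimmer of 2 Etv1 probes, which was above it on none. All 10 members entered the fit over 24609 entries. Plk2 itself, the check of the labels, had processed signals of 1169, 1160 and 1472 in wild-type samples 1, 2 and 3 and of 2.44, 1.93 and 1.88 in null samples 1, 2 and 3, the latter not well above background. Which stretch of Plk2 was deleted is not stated in the labels. The luminal marker list had 14 of 14 genes measurable and the basal list 10 of 10, and so were 16 of 16 endothelial, 12 of 14 T and NK cell, 8 of 10 B cell and 15 of 16 myeloid markers. Fewer cells of a type and less RNA per cell cannot be told apart in such samples.

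Across the 10 members, 6 had a negative and 4 a positive difference (null minus wild type), with a median of -0.20 on the log2 scale against 0.03 over all entries. Arrays of the groups did not overlap for 3 members, Ets1, Ets2 and Erg, all lower in null samples, where 12% of all entries were lower without overlap and 31.6% were apart in either direction. No member was higher without overlap, against 19.6% of all entries. Ets1 was the 1 member under the limma threshold (adjusted p under 0.05), in a fit that called 0.337% of entries lower, 0.228% higher and 0.565% in all. Nothing is read from these counts, since the same contrast was in view when the genes were listed.

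**Figure D1:**
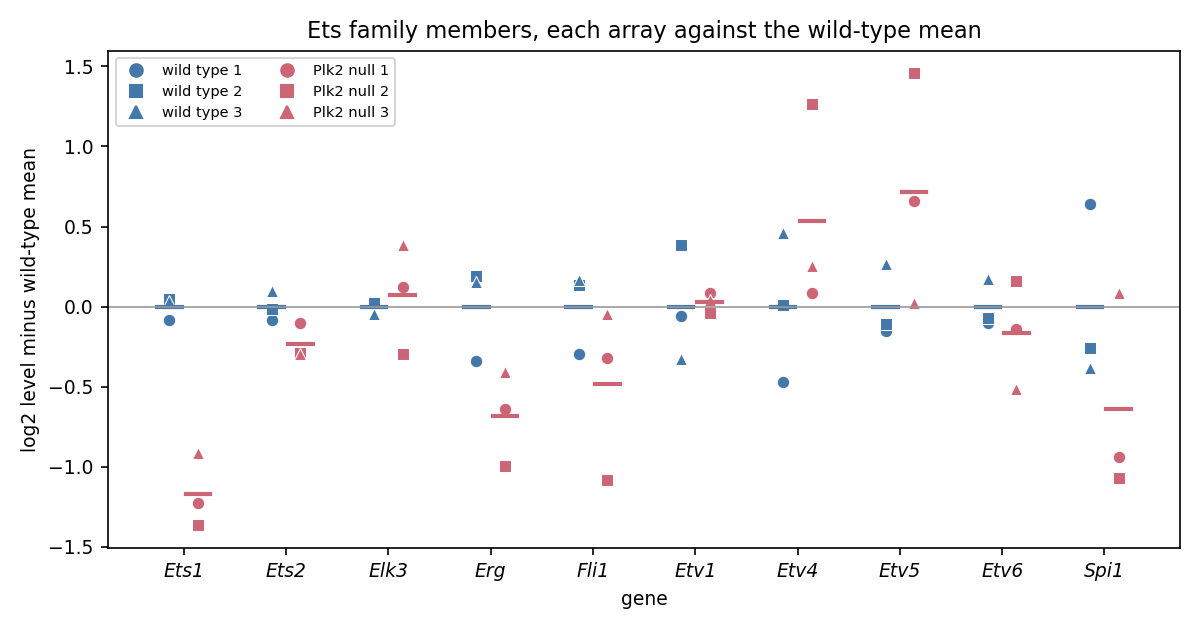
Log2 level of each member on each of the 6 arrays minus that gene's wild-type mean; blue symbols are wild-type and red symbols null samples, the symbol shape gives the sample number within its group, and bars are group means. The 3 null values of Ets1 lie from -1.37 to -0.91, apart from all wild-type values, whereas the null values of Etv4, Etv5 and Fli1 are spread widely and null sample 2 is the farthest from wild type in each.

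Ets1, the founding gene of the family, had the widest difference among the 10 members. Its level was 3.46, 3.59 and 3.58 in wild-type samples 1, 2 and 3 and 2.32, 2.18 and 2.63 in null samples 1, 2 and 3. Every null sample was below every wild-type sample, and the wild-type values lay within 0.13 of each other. The means were 3.54 ± 0.07 (SD, n = 3) and 2.37 ± 0.23 (SD, n = 3), a difference of -1.17 (SE 0.17), or 2.25-fold lower. A further Ets1 probe gave 2.34 ± 0.23 and 1.43 ± 0.35 (SD, n = 3 each), a difference of -0.91 that also left no overlap. In the authors' deposited table these probes have folds of -2.32 and -1.93, signed for null against wild type, and they are the only 2 of the 16 member probes that pass both of its thresholds (p of 0.01, fold of 1.4), as 1.46% of its rows do. Ets1 was no longer under the limma threshold without wild-type sample 1, 2 or 3 (differences of -1.21, -1.14 and -1.15) or without null sample 1 or 2 (-1.14 and -1.07). It was also not under it with the replicate number as a block (adjusted p = 0.126), with spike-in scaling (-0.88; adjusted p = 0.0683), with the mean of its probes (-1.04; adjusted p = 0.0642) or without the filter on dim probes (adjusted p = 0.122). Neither this threshold nor those of the deposited table are taken as support for Ets1, since the contrast was known when it was listed. Lymphocyte markers moved in the same samples: all 12 T and NK cell genes tested and all 8 B cell genes had negative differences, with medians of -2.43 and -2.51. Measured against wild-type means, the T and NK cell median was -2.61 in null sample 1, -3.16 in null sample 2 and -1.36 in null sample 3, and the Ets1 offsets in the same order were -1.23, -1.37 and -0.91. None of these 20 marker genes passed the limma threshold (18 had an unadjusted p under 0.05, against 23% of all entries). Fibroblast markers were negative in 11 of 11 tested, with a median of -0.49. Of these, 0 passed (7 at an unadjusted p under 0.05, against the same 23%). The lowest p among them belonged to Sfrp2, a secreted Wnt modulator gene, at -0.63 (SE 0.18; limma adjusted p = 0.116). The fibroblast median was -0.46, -0.75 and -0.30 in null samples 1, 2 and 3. Among null samples, sample 2 was thus lowest and sample 3 highest for Ets1 and for the T and NK cell, B cell and fibroblast lists. The endothelial list (-0.24, -0.79 and 0.03) and the myeloid, pericyte and luminal lists had the same order. It is therefore not particular to lymphocytes or fibroblasts. The part of any of these cell types in the Ets1 difference was not tested.

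Ets2 is a Ras-responsive relative of Ets1. Its level was 6.26, 6.33 and 6.44 in wild-type samples 1, 2 and 3 and 6.24, 6.06 and 6.05 in null samples 1, 2 and 3. The groups did not overlap, but wild-type sample 1 and null sample 1 were 0.02 apart. The difference was -0.23 (SE 0.14), and its sign turned with spike-in scaling, to 0.06, whereas it was -0.36 with quantile normalization and -0.35 with the deposited values.

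Erg and Fli1, the endothelial and blood regulators, were both lower on average. Erg had levels of -2.08, -1.54 and -1.58 in wild-type samples 1, 2 and 3 and of -2.37, -2.73 and -2.14 in null samples 1, 2 and 3. The groups did not overlap, although wild-type sample 1 came within 0.07 of null sample 3. The difference was -0.68 (SE 0.23), or 1.60-fold lower, and the other Erg probe gave -0.70. The authors' deposited table gave a smaller fold for the first of these probes, -1.30, and the difference was -0.41 with normexp background correction and -0.39 with spike-in scaling. The second probe was dim, with processed signals of 16.0 to 35.3. Fli1 had levels of 0.74, 1.17 and 1.20 in wild-type samples 1, 2 and 3 and of 0.71, -0.05 and 0.99 in null samples 1, 2 and 3. Its groups overlapped, since null sample 3 was above wild-type sample 1. The difference was -0.49 (SE 0.29), and it was -0.19 without null sample 2 and also with spike-in scaling. The endothelial list had 15 of 16 negative members with a median of -0.35. Of its genes, 0 passed the limma threshold (2 at an unadjusted p under 0.05, against 23% of all entries). The lowest p among them belonged to the VEGF receptor gene Flt1, at -0.83 (SE 0.28; limma adjusted p = 0.153), and the clotting factor gene Vwf, at -0.61 (SE 0.23; adjusted p = 0.188). Measured the same way, the endothelial median was -0.24 in null sample 1, -0.79 in null sample 2 and 0.03 in null sample 3, and -0.33 in wild-type sample 1. Fli1 too was lowest in null sample 2 and highest among null samples in null sample 3. The lymphocyte, fibroblast and myeloid lists had that order as well. Whether the Erg and Fli1 differences follow the endothelial share was not tested.

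Spi1, which encodes PU.1, was dim and variable. Its level was -2.61, -3.51 and -3.63 in wild-type samples 1, 2 and 3 and -4.19, -4.32 and -3.17 in null samples 1, 2 and 3. The groups overlapped, with null sample 3 above wild-type samples 2 and 3. The difference was -0.64 (SE 0.40), or -0.32 without wild-type sample 1, -0.43 without null sample 2 and -1.00 without null sample 3. Its size was smaller with normexp background correction, at -0.26, with spike-in scaling, at -0.35, and with the deposited values, at -0.22. The myeloid list had 14 of 15 tested members negative and a median of -0.46. Of its genes, 0 passed the limma threshold (4 at an unadjusted p under 0.05, against 23% of all entries). The list median was 0.39, -0.22 and -0.15 in wild-type samples 1, 2 and 3 and -0.37, -0.79 and -0.11 in null samples 1, 2 and 3. Wild-type sample 1 was thus highest and null sample 2 lowest for both Spi1 and the list. The same held for the T and NK cell list (0.43 and -3.16), the B cell list (0.45 and -3.11) and the fibroblast list (0.09 and -0.75). The exception in the myeloid list was the lipopolysaccharide co-receptor gene Cd14, at 0.44 (SE 0.17; limma adjusted p = 0.182). The part of myeloid or other cells in the Spi1 values was not tested.

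**Figure D2:**
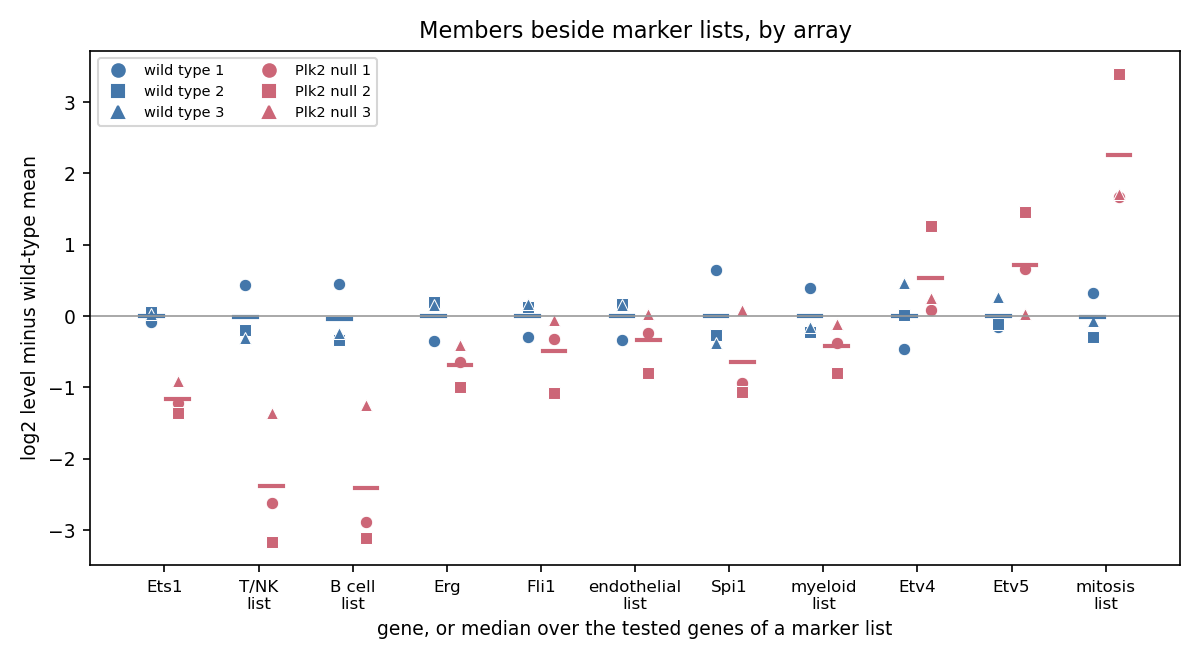
Log2 level minus the wild-type mean, by array, for 6 members beside the median of the tested genes of 5 marker lists; blue is wild type, red is null, shapes give the sample number and bars are the means of the 3 arrays. Null sample 2 is the lowest for Ets1, Erg, Fli1 and Spi1 and for the lymphocyte, endothelial and myeloid lists, and the highest for Etv4, Etv5 and the mitosis list.

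In the Pea3 group the differences ran from 0.03 to 0.71, with no member under the limma threshold; whether its members differ from each other was not tested. Etv5 had levels of 3.16, 3.20 and 3.57 in wild-type samples 1, 2 and 3 and of 3.97, 4.77 and 3.33 in null samples 1, 2 and 3. Null samples 1 and 2 were above all wild-type samples, and null sample 3 lay among them. The difference was 0.71 (SE 0.36), and it was 0.34 without null sample 2. Etv4 had levels of 1.98, 2.46 and 2.91 in wild-type samples 1, 2 and 3 and of 2.54, 3.71 and 2.71 in null samples 1, 2 and 3. Only null sample 2 was outside the wild-type range. The difference was 0.54 (SE 0.37) by the brighter probe and 0.53 by the other, and it was 0.17 without null sample 2, 0.30 without wild-type sample 1 and 0.83 with spike-in scaling. Etv1 had levels of 1.48, 1.93 and 1.21 in wild-type samples 1, 2 and 3 and of 1.63, 1.50 and 1.58 in null samples 1, 2 and 3. The null values lay inside the wild-type range, with a difference of 0.03 (SE 0.21) whose sign changed in 5 of 17 alternatives, among them quantile normalization (-0.02), the deposited values (-0.02) and the fit without wild-type sample 3 (-0.14).

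Genes known as targets or feedback regulators of FGF and ERK signalling stood as follows in the same samples. Of 13 listed, 11 were tested, 6 positive and 5 negative with a median of 0.02. The limma threshold was passed by 0, and 2 had an unadjusted p under 0.05, against 23% of all entries. Those were Ccnd1, which encodes cyclin D1, at 1.08 (SE 0.21; limma adjusted p = 0.0692), and Dusp6, an ERK phosphatase gene, at 0.96 (SE 0.20; adjusted p = 0.0776); both were higher in null samples without overlap. Dusp4, a related phosphatase gene, had a difference of -0.49 (SE 0.21; adjusted p = 0.221) and Il17rd, which encodes the FGF antagonist Sef, of -0.43 (SE 0.21; adjusted p = 0.276). Mitotic genes were positive in 10 of 10 tested. Against wild-type means, their medians were 1.67 in null sample 1, 3.39 in null sample 2 and 1.71 in null sample 3. Of these genes, 0 passed the limma threshold (10 at an unadjusted p under 0.05, against 23% of all entries). Null sample 2 was thus highest for Etv4, Etv5 and the mitotic list alike, and also for the basal marker list, at 0.80. Wild-type sample 1 was the highest wild-type sample for the mitotic list, at 0.32, but the lowest for Etv4 and Etv5. The array of null sample 2 also had the most spots well above background, 56.2% against 51.8% to 54.1% on the others. The part of dividing cells, basal cells or the array in these values was not tested.

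Elk3 and Etv6, which can act as repressors, had differences of 0.07 and -0.17. Elk3, a partner of serum response factor, had levels of 2.41, 2.41 and 2.34 in wild-type samples 1, 2 and 3 and of 2.51, 2.09 and 2.77 in null samples 1, 2 and 3. The null samples lay on both sides of the narrow wild-type range. The difference was 0.07 (SE 0.20), the other Elk3 probes gave -0.14 and -0.05, and the sign turned without null sample 3 (-0.09), with array weights and with the mean of its probes (-0.04 each). Etv6 had levels of 2.15, 2.17 and 2.42 in wild-type samples 1, 2 and 3 and of 2.10, 2.40 and 1.73 in null samples 1, 2 and 3. The groups overlapped, and the difference of -0.17 (SE 0.21) turned to 0.13 with spike-in scaling and to 0.01 without null sample 3, and was -0.33 without null sample 2. Elk3 and Etv6 ran opposite to each other over the null samples, Elk3 being highest and Etv6 lowest in null sample 3.

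The rest of the family was set beside the members, in a list of 16 genes of which 15 were tested; both Etv2 probes were not well above background on any array. Differences were positive in 7 and negative in 8, with a median of -0.07, and 0 passed the limma threshold (7 at an unadjusted p under 0.05, which 23% of the fitted entries reached). Elf5, which directs the alveolar luminal lineage, had levels of 2.82, 3.02 and 3.61 in wild-type samples 1, 2 and 3 and of 4.72, 5.34 and 4.52 in null samples 1, 2 and 3. All null samples were above all wild-type samples, with a difference of 1.71 (SE 0.29; limma adjusted p = 0.0571), and Elf5 passed the threshold in 8 of 17 alternatives, among them the fit without null sample 3 (1.88; adjusted p = 0.0452), over a range of adjusted p from 0.0166 to 0.183. Luminal markers were negative in 9 of 14 tested, with a median of -0.09. Of these, 1 passed the limma threshold (5 at an unadjusted p under 0.05, against 23% of all entries). That was Pgr, the progesterone receptor gene, whose level was 1.98, 1.57 and 1.36 in wild-type samples 1, 2 and 3 and 0.14, -0.59 and -0.51 in null samples 1, 2 and 3, a difference of -1.96 (SE 0.26; limma adjusted p = 0.043) that passed in 8 of 17 alternatives (adjusted p from 0.00982 to 0.138). It did not pass without wild-type sample 1, 2 or 3 (-1.78, -1.99 and -2.10), without null sample 1 or 2 (-2.19 and -1.82), with the replicate block (adjusted p = 0.0801), or with quantile normalization, spike-in scaling or no filter. Esr1, the oestrogen receptor gene, at -0.91 (SE 0.27; adjusted p = 0.122), Prlr, the prolactin receptor gene, at -0.94 (SE 0.29; adjusted p = 0.131), and the claudin gene Cldn4, at -0.71 (SE 0.23; adjusted p = 0.149), were lower without overlap and did not pass. The part of luminal cell types in the Elf5 values was not tested. Ehf, an epithelial Ets gene that precedes Elf5 on chromosome 2, differed by 0.98 (SE 0.31; adjusted p = 0.14) by its brighter probe. Its level there was 2.23 ± 0.33 in wild type and 3.21 ± 0.54 in null samples (SD, n = 3 each). Groups of that probe did not overlap, but null sample 3, at 2.60, was close to wild-type sample 3, at 2.57. The other Ehf probe gave 0.95 with overlapping groups, null sample 3 (2.57) being below wild-type sample 3 (2.71). Erf, which encodes an ERK-controlled repressor, differed by 0.61 (SE 0.17; adjusted p = 0.113).

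Relatives of Spi1 and a lymphoid factor were on the lower side. Spic, a factor of macrophages and B cells, had levels of 0.86, 0.27 and 0.03 in wild-type samples 1, 2 and 3 and of -1.78, -2.99 and -1.01 in null samples 1, 2 and 3. All null samples were below all wild-type samples, with a difference of -2.31 (SE 0.50; limma adjusted p = 0.0821), and Spic passed the threshold in 4 of 17 alternatives (adjusted p from 0.031 to 0.221), among them the fit without null sample 3 (-2.77; adjusted p = 0.0406). Spib, used by B cells and plasmacytoid dendritic cells, differed by -2.79 (SE 0.94; adjusted p = 0.152) and was well above background on 2 of 3 null arrays. Its null samples 1, 2 and 3 lay -1.14, -5.07 and -2.17 from the wild-type mean, and the array of null sample 2 is the one not well above background, so its value there is only a bound. Without null sample 2 the difference was -1.66 (adjusted p = 0.162), with the deposited values it was -1.38, and with normexp it was -1.35, under the threshold (adjusted p = 0.0363); adjusted p over its 16 alternatives ran from 0.0363 to 0.333. Elf4, a factor of lymphocyte quiescence, differed by -0.84 (SE 0.26; adjusted p = 0.137), and by -0.19 with normexp, -0.15 with the deposited values and -0.55 with spike-in scaling. Etv3 differed by -0.46 (SE 0.17; adjusted p = 0.173), likewise without overlap, and by -0.17 with spike-in scaling. The remaining 8 family genes were Elf1, Elf2, Elf3, Elk1, Elk4, Gabpa, Fev and Spdef. By the brightest probe of each, they had overlapping groups and differences between -0.39 and 0.34. A dimmer Elf1 probe also differed by -0.39, but without overlap. It had levels of 0.56, 0.37 and 0.41 in wild-type samples 1, 2 and 3 and of 0.12, 0.18 and -0.13 in null samples 1, 2 and 3.

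**Figure D3:**
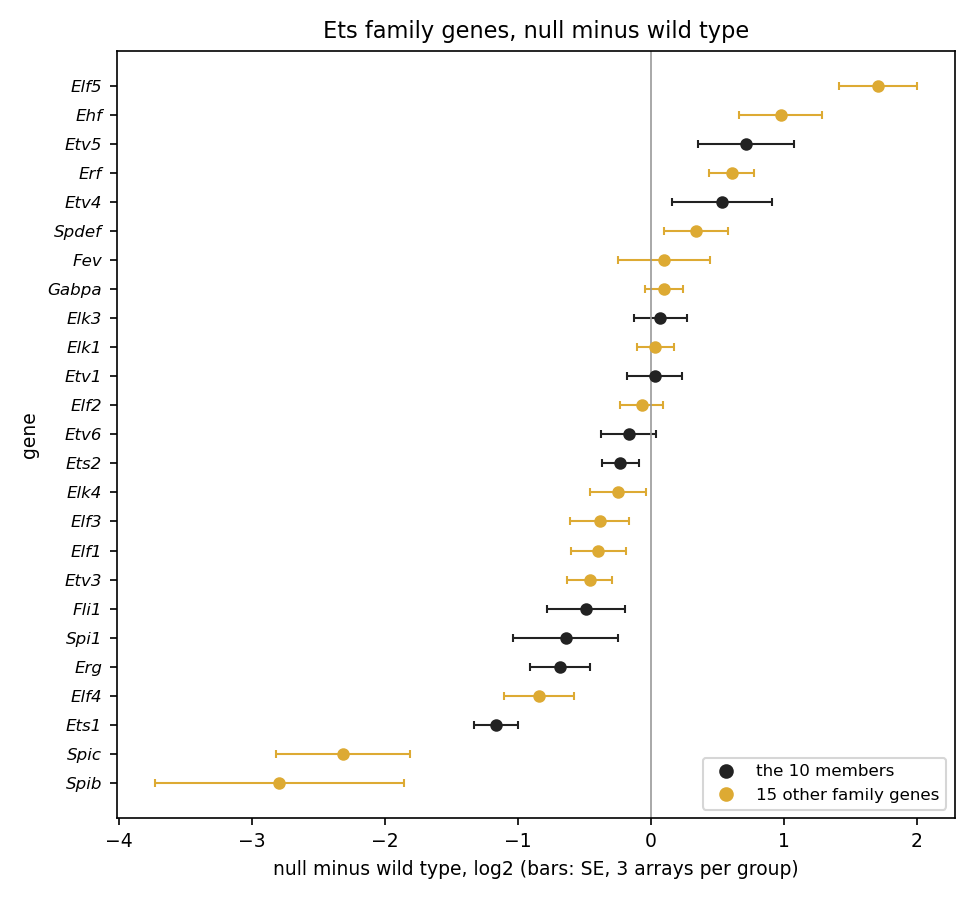
Difference between null and wild type on the log2 scale for the 10 members (black) and the 15 other family genes tested (yellow), with bars for the standard error of the fit over 3 arrays per group. The members span -1.17 for Ets1 to 0.71 for Etv5, inside the range from -2.79 for Spib, which is -1.66 without null sample 2, to 1.71 for Elf5.

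Genes of known Ets partners had mostly negative differences: of 14 tested, 12 were negative with a median of -0.24, where 47.15% of all entries were negative. Of these genes, 0 passed the limma threshold (3 at an unadjusted p under 0.05, against 23% of all entries). Irf4, a partner of PU.1 and Spi-B in B cells, differed by -1.31 (SE 0.40; limma adjusted p = 0.131), Runx2, a Runt factor, by -0.56 (SE 0.22; adjusted p = 0.193), Irf8, a partner of PU.1 in myeloid and B cells, by -0.51 (SE 0.20; adjusted p = 0.204), and Crebbp, a histone acetyltransferase, by -0.33 (SE 0.15; adjusted p = 0.244). Lymphocyte medians were at -2.43 and -2.51 in the same samples, and the part of lymphocytes in the partner differences was not tested.

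The named genes most like a member were ranked by Pearson's r over the 6 arrays, which includes the split between the groups and, with so many genes, gives high values readily. For Ets1 they were Abhd14b, Sh2b3, an adaptor that restrains cytokine signalling, and Jade2, for Erg they were Adamts4, Adipor2 and Rasip1, an endothelial regulator of vessel lumens, and for Fli1 they were Abcb4, Grasp and Slco2b1. For Spi1 they were Steap3, Pip4p1 and Grn, which encodes progranulin. For Etv5 they were Adora1, Dgcr8 and Ccnf, and for Etv4 they were Wdr12, Agtpbp1 and Slx4ip. Values of r for these 18 genes lay between 0.984 and 0.999.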

How the data were processed

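RNA was Trizol-extracted, amplified and Cy3-labelled, per the labels' protocols, and arrays of Agilent design 028005 (mm9 annotation) were read with Feature Extraction 11.0.1.1, per the file headers. The deposited processed signal is a background-corrected intensity per spot, not normalized between arrays. The authors' deposited table holds normalized intensities, unadjusted p-values, wild-type over null ratios and, as a score, a fold with a sign; how it was made is not given in the labels or headers. Here, log2 processed signal was centred on the 75th percentile of each array over gene spots. Control spots and 1119 outlier spots were left out and no spot was saturated. Spots of a probe were averaged, a probe was kept if at least 3 of the 6 arrays had it well above background, and the brightest probe per gene was used, which left 24609 entries (14417 named through RefSeq accessions, 40 missing values). Probes with no gene stood alone. Differences are null minus wild type, fitted with limma 3.58.1 (R 4.3.3), with p-values adjusted by Benjamini-Hochberg over all entries; limma fits used 3 arrays per group, whose number limits the precision. The limma fit, but not the steps before it, was tried on values simulated for each entry. Members, lists and tests were chosen with earlier results of these data known. Named genes are the members, other family genes, the 4 smallest p of a list (some are not named here) and the 3 genes most like a member.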

Additional observations from a re-analysis of the deposited data

How the results depend on the processing

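Signs of Ets1, Erg, Fli1, Spi1, Etv4 and Etv5 held in all 17 alternatives, while those of Ets2, Elk3, Etv1 and Etv6 turned in at least 1. Spike-in scaling, on 7 spike-in probes, moved the median of all entries from 0.03 to 0.32 and that of the members from -0.20 to 0.093; without one sample the members' median ran from -0.25 to -0.14. The number of members called was 1, and 0 with spike-in scaling, without the filter, with the mean of a gene's probes and with the replicate block, and 0 to 1 without one sample. Calls over all entries were 56 higher and 83 lower. They were 718 and 514 with normexp, 179 and 167 with median centring, 273 and 126 with spike-in scaling, 378 and 378 with the deposited values, 5 and 26 without the filter, 204 and 176 with probes above background on all 6 arrays, 459 and 388 with trend and robust moderation and 668 and 706 with array weights. Without one sample they ran from 1 to 239 and from 6 to 465, the highest without null sample 3. Of the other family genes 3 were called with normexp, 3 with array weights, 2 with trend and robust moderation, 1 with median centring, 1 with spike-in scaling, 1 with the deposited values, 1 with probes above background on all 6 arrays and 0 to 2 without one sample, against 0. The cause was not tested. Titles share replicate numbers, but deviations of same-numbered samples correlated at -0.12, 0.04 and -0.02, so the numbers were not taken as pairs; the replicate block gave 2 higher and 6 lower. Signal close to background limits Spi1, Erg, Elf4 and Spib.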

Other observations

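Genes most like the other members over the 6 arrays were Sphk1, Mtf1 and Trip11 for Ets2, 5033406O09Rik, Ghr and Tmem273 for Elk3, Prr3, Slc4a1 and S100a5 for Etv1, and Frs2, Srsf4 and Gak for Etv6. Frs2 encodes an adaptor of FGF receptors and Ghr the growth hormone receptor. Basal epithelial markers were positive in 9 of 10 with a median of 0.67, and 0 passed the limma threshold (3 at an unadjusted p under 0.05); the oxytocin receptor gene Oxtr had the smallest p, at 1.39 (SE 0.28; limma adjusted p = 0.0723). Pericyte markers were negative in 7 of 8 with a median of -0.43, and 0 passed (3 at an unadjusted p under 0.05). Adipocyte markers were positive in 5 of 6 tested with a median of 0.24, and 0 passed by limma (0 at an unadjusted p under 0.05).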
